A study of Homo sapiens with 6 samples.

Results

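The 9 tetraspanin genes CD9, CD63, CD81, CD82, CD151, TSPAN1, TSPAN8, TSPAN14 and TSPAN15 were taken by symbol from count and FPKM tables that hold 23059 genes, and all 9 were found. HCC-LM3, an established line of human liver cancer cells (hepatocellular carcinoma) known to metastasise readily, received apigenin, a plant flavone, or DMSO, the solvent control. Each group has 3 libraries of total RNA, named biological replicates by the labels, and no other treatment or genetic change is given for either group. The labels used here give neither the dose nor how long the cells were treated. The title of the study is about microvesicle formation and tumour angiogenesis, and the comparison asks how apigenin changes the RNA of these cells.

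Tetraspanins are small proteins that cross the membrane several times and gather integrins, proteases and one another into membrane patches. Several of them are carried on exosomes and on vesicles shed from the cell surface, where CD9, CD63 and CD81 are the usual vesicle markers. In tumours, CD82 is known as a metastasis suppressor, while CD151 and TSPAN8 are known for promoting cell movement. The RNA levels given here say nothing about the number or content of vesicles.

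Of the 9 genes, CD82 and TSPAN8 fell with apigenin, none rose, and 7 did not pass the test. Over all 15173 genes tested, 4.22% fell and 2.76% rose, 6.99% in either direction, at an adjusted p under 0.05, as called by edgeR's quasi-likelihood test with Benjamini-Hochberg adjustment. At an unadjusted p under 0.05 edgeR had 3 members higher (CD9, CD63 and CD81) and 2 lower, while DESeq2 and limma on log2(FPKM + 1) each called 0 higher and 2 lower. Among all 15173 tested genes edgeR had 1780 higher and 1917 lower at that unadjusted p, the background for such counts below. DESeq2 called 722 of all genes higher and 967 lower, and limma 351 and 303 of 12592. The median log2 fold change of the 9 was 0.08, against 0.00389 over all tested genes. With 2 calls among 9 genes, the count alone sets the members little apart from the background.

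For the genes that fell, the stretch before a RefSeq transcription start is shown because these are the members called. Both are RefSeq sequences of GRCh38.p14, written from 5′ to 3′ on the strand of the gene. Each begins 250 bases before the start used and stops before any GENCODE 29 exon. The start used for CD82, at 44565663, is the only one in the table and lies within the span of the gene, which begins at 44564409, so this stretch precedes that start and not the whole gene. The stretch of TSPAN8 lies beyond the 5′ end of the gene. Capitals mark GGGCGG, the GC box bound by Sp1-type factors, and GCGTG, the core of the site bound by the aryl hydrocarbon receptor.
CD82 (chr11:44565413-44565590, plus strand): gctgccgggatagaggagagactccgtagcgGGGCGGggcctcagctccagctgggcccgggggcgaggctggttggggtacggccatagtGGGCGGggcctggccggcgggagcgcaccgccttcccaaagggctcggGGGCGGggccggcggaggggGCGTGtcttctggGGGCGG
TSPAN8 (chr12:71158100-71158249, minus strand): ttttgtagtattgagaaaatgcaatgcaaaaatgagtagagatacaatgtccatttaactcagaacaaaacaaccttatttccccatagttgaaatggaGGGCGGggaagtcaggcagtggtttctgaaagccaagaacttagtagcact

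Over the 250 bases before the start used, G and C made up 77.2% at CD82 and 40.8% at TSPAN8, against a median of 58.0% over 35116 RefSeq start sites. CD82 held GGGCGG 4 times and TSPAN8 held it 1 time, and 42.6% of all such windows hold it on either strand. GCGTG occurred 1 time at CD82, 91 bases before the start, and in 32.2% of all windows, but not in the window of TSPAN8. Neither window held TGANTCA, the AP-1 site, found in 6.57% of all windows. The motifs do not overlap one another in these windows, both strands were searched, and a match is only a match of letters. TSPAN8 has 2 RefSeq start sites in the table used, of which the one farther upstream is shown.

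Libraries held 33882145 to 37983636 counts, of which the 9 genes took 0.129 to 0.134% with DMSO and 0.134 to 0.152% with apigenin. The level of a gene relative to the DMSO mean followed gene length in the apigenin libraries, with slopes of -0.071, -0.021 and -0.147 log2 units per doubling of length in apigenin 1, 2 and 3, and -0.0047 to 0.0032 with DMSO. Apigenin 3 stood farthest from the DMSO libraries in this respect and apigenin 2 nearest. The change of each of the 9 genes is therefore also given with this length trend removed. Hepatocyte markers were expressed, 8 of 9 at a mean of 1 FPKM or more, and their summed level was 103 to 108 FPKM with DMSO and 61.8 to 64.2 with apigenin. Of these, ALB (log2 fold change -1.22), SERPINA1 (-1.03) and APOB (-0.75) fell. Markers of fibroblasts reached 1 FPKM for 1 of 6 genes (LUM, which rose by 0.33), of endothelium for 2 of 5 (PECAM1 and KDR) and of leukocytes for 1 of 6 (CD68), and the part of these genes in the changes below was not tested. The leukocyte tetraspanins CD37 and CD53 had means of 0.135 and 0.376 CPM (counts relative to library size, scaled with TMM factors) with DMSO, and PTPRC, the pan-leukocyte marker, had 0.127. Lower RNA in bulk libraries cannot be told apart as fewer expressing cells or less RNA per cell.

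Per length, the 9 genes spanned a wide range of levels. CD63 (chromosome 12, 55723535 to 55730041), a tetraspanin of late endosomes, lysosomes and exosomes, led with 306 ± 3.85 FPKM under DMSO (SD, n = 3 here and below), above 99.4% of all genes in the tables. CD151 (chromosome 11, 832952 to 838831), the partner of laminin-binding integrins, followed with 163 ± 8.75 FPKM. CD9 (chromosome 12, 6199946 to 6238266) had 78.6 ± 2.61 FPKM and TSPAN8 (chromosome 12, 71125096 to 71157999) 74.9 ± 1.73. The level of CD9 was 1.05 times that of TSPAN8, and their ranges, 76.6 to 81.6 and 73.1 to 76.6 FPKM, almost touched.

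The other 5 genes were lower. CD81 (chromosome 11, 2376180 to 2397397), the third common vesicle marker, had 17.2 ± 0.998 FPKM, and TSPAN8 was 4.35 times as high. TSPAN14 (chromosome 10, 80454310 to 80522631) had 8.43 ± 0.137 FPKM and TSPAN15 (chromosome 10, 69451465 to 69549508) 6.22 ± 0.263. TSPAN1 (chromosome 1, 46175087 to 46196489) had 4.22 ± 0.426 and CD82 (chromosome 11, 44564409 to 44620358) 3.96 ± 0.443 FPKM, the least of the 9. The DMSO ranges of TSPAN1 and CD82 overlapped (3.89 to 4.70 and 3.52 to 4.40 FPKM), so that these 2 neighbours in the order did not differ beyond their spread. All other neighbours had ranges that did not overlap. CD63 was 77.4 times as high as CD82, and all 9 genes kept their rank with apigenin.

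**Figure D1:**
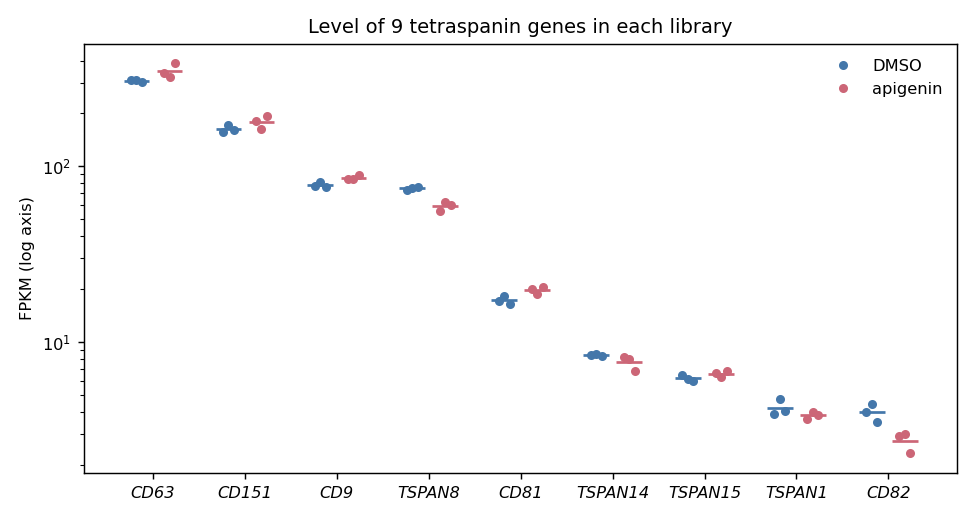
FPKM (log axis) of the 9 tetraspanin genes in each library, ordered by the DMSO mean; points are libraries (3 DMSO, 3 apigenin) and short lines group means. CD63 leads at 306 FPKM and CD82 is last at 3.96 FPKM under DMSO, and the order is the same with apigenin.

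CD82, also called KAI1, fell 1.45-fold. It had 9.58, 10.6 and 8.51 CPM in DMSO 1, 2 and 3 and 7.05, 7.10 and 5.66 CPM in apigenin 1, 2 and 3. All 3 apigenin libraries lay below all 3 DMSO libraries, with apigenin 3 the lowest. The log2 fold change was -0.53 ± 0.141 (SE, 95% interval -0.84 to -0.23, edgeR adjusted p = 0.0373).

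The reads behind CD82 were few, 294 to 396 per DMSO library and 190 to 272 per apigenin library. Its coefficient of variation among libraries was 10.9% with DMSO and 12.4% with apigenin, where counting alone would give 5.36 and 6.54%. The call was lost in edgeR without DMSO 1, 2 or 3, apigenin 1 or apigenin 3 (log2 fold changes -0.53, -0.45, -0.61, -0.58 and -0.44, adjusted p = 0.143, 0.158, 0.0652, 0.093 and 0.0609). CD82 stood at -0.60 with the length trend removed (adjusted p = 0.0114). CD82 overlaps CD82-AS1, a gene on the opposite strand that has no counts of its own here. Whether counting used strand is not stated, so the part of CD82-AS1 in the reads of CD82 was not tested.

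TSPAN8, a tetraspanin of digestive tract epithelium and its tumours that is also known from vesicles acting on endothelial cells, fell 1.26-fold. It had 86.3, 88.4 and 90.6 CPM in the DMSO libraries and 65.5, 72.9 and 71.6 CPM in apigenin 1, 2 and 3. The groups were well apart, the highest apigenin library, apigenin 2, being below the lowest DMSO library. The log2 fold change was -0.34 ± 0.065 (95% interval -0.48 to -0.20, edgeR adjusted p = 0.00718).

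TSPAN8 rested on 2220 to 3305 reads per library and varied by 2.44% among DMSO and 5.68% among apigenin libraries. Unlike that of CD82, its lowest value was in apigenin 1 and not in apigenin 3. Its call was lost in edgeR without DMSO 2, DMSO 3 or apigenin 1 (log2 fold changes -0.34, -0.32 and -0.29, adjusted p = 0.0516, 0.0627 and 0.061). TSPAN8 is the shortest of the 9, with 1180 nucleotides, and with the length trend removed it stood at -0.47 (adjusted p = 8.01e-05). No gene overlaps TSPAN8 in RefSeq.

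**Figure D2:**
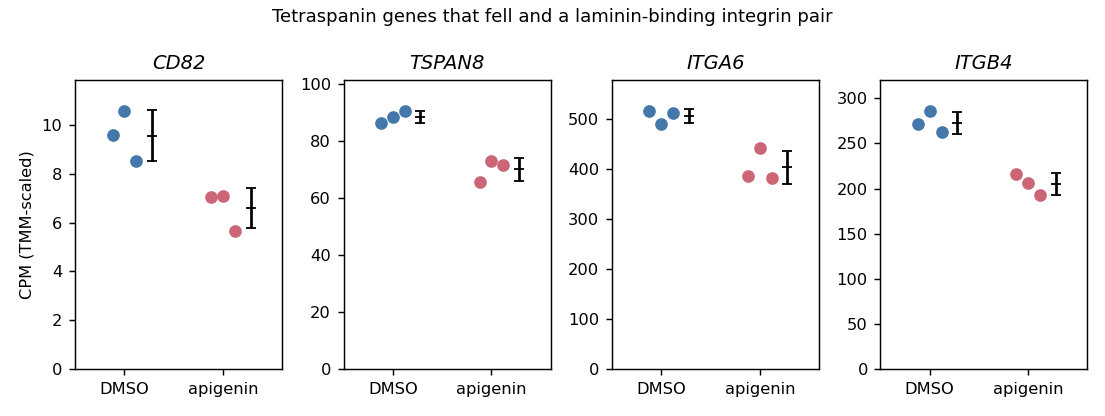
TMM-scaled CPM, each axis from 0, of CD82, TSPAN8 and the integrin genes ITGA6 and ITGB4 in each library; points are libraries, and black marks are the mean ± SD of 3. In each panel the 3 apigenin libraries lie below the 3 DMSO libraries (CD82 9.56 against 6.60 CPM, TSPAN8 88.4 against 70.0 CPM on average).

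The vesicle markers CD63, CD81 and CD9 had higher values with apigenin and did not pass the test. CD63 had 627, 625 and 615 CPM in the DMSO libraries and 691, 650 and 791 CPM in apigenin 1, 2 and 3. Its groups did not overlap, but the apigenin libraries varied by 10.2%, against 1.02% with DMSO. The log2 fold change was 0.19 ± 0.065 (95% interval 0.05 to 0.33, edgeR adjusted p = 0.0897).

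CD81, which associates with claudin-1 and is an entry factor of hepatitis C virus, had 37.4, 40.1 and 36.0 CPM with DMSO and 44.0, 41.0 and 45.5 CPM with apigenin. DMSO 2 and apigenin 2 lay next to each other. The log2 fold change was 0.20 ± 0.075 (95% interval 0.04 to 0.36, edgeR adjusted p = 0.119). CD9, which acts in adhesion and membrane fusion, had 164, 172 and 162 CPM with DMSO and 179, 177 and 191 CPM with apigenin. Here too the groups did not overlap, by a small margin, with a log2 fold change of 0.13 ± 0.057 (95% interval 0.01 to 0.26, edgeR adjusted p = 0.168).

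Apigenin 3 was the highest and apigenin 2 the lowest of the apigenin libraries for CD63, CD81, CD9 and CD151, which is also the order of the slopes on length. Relative to the DMSO mean, CD63 stood at 0.15, 0.06 and 0.35 log2 units in apigenin 1, 2 and 3. These 4 genes are short, with 1624 to 2198 nucleotides against a median of 3872 over the tested genes. With the length trend removed the log2 fold changes were 0.10 for CD63, 0.12 for CD81, 0.05 for CD9 and 0.02 for CD151. Without apigenin 2, edgeR called CD63 (0.25, adjusted p = 0.00538), CD81 (0.24, adjusted p = 0.0388) and CD151 (0.20, adjusted p = 0.0227) higher. Over all genes too, more were called higher and more lower without apigenin 2 than without any other library.

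CD151 had 254, 280 and 261 CPM with DMSO and 293, 264 and 317 CPM with apigenin. Apigenin 2 lay within the DMSO range, so the groups overlapped. Its log2 fold change was 0.14 ± 0.069 (95% interval -0.01 to 0.28, edgeR adjusted p = 0.245).

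TSPAN14 and TSPAN15 belong to the tetraspanins that bind the protease ADAM10 and carry it to the cell surface, and neither passed the test. TSPAN14 had 52.9, 53.3 and 51.9 CPM with DMSO and 50.9, 49.6 and 43.3 CPM with apigenin. The groups did not overlap, though only apigenin 3 stood clearly lower. The log2 fold change was -0.14 ± 0.074 (95% interval -0.29 to 0.02, edgeR adjusted p = 0.289) and -0.068 without apigenin 3, and it was -0.072 with the length trend removed. TSPAN15 had 63.0, 59.4 and 58.2 CPM with DMSO and 63.8, 60.7 and 66.6 CPM with apigenin, and the groups overlapped. Its log2 fold change was 0.08 ± 0.067 (95% interval -0.06 to 0.23, edgeR adjusted p = 0.487), and 0.049 without apigenin 3. TSPAN15 is the longest of the 9, with 9668 nucleotides, and with the length trend removed it stood at 0.22 (adjusted p = 0.0563).

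TSPAN1, a tetraspanin of secretory epithelium, had 7.43, 8.93 and 7.76 CPM with DMSO and 6.90, 7.54 and 7.44 CPM with apigenin. The groups overlapped and the log2 fold change was -0.14 ± 0.131 (95% interval -0.42 to 0.14, edgeR adjusted p = 0.556), on 234 to 334 reads per library. It was -0.058 without DMSO 2, the highest library, and -0.23 with the length trend removed. TSPAN1 overlaps POMGNT1, a gene on the opposite strand with 1854 to 2167 reads per library. Whether counting used strand is not stated, so the level of TSPAN1 is uncertain. CD63 overlaps CD63-AS1, whose reads came to 1.26% of those of CD63.

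Of the 9 genes 6 had groups that did not overlap, CD9, CD63 and CD81 above and CD82, TSPAN8 and TSPAN14 below DMSO. Over all tested genes 29.4% had such groups.

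**Figure D3:**
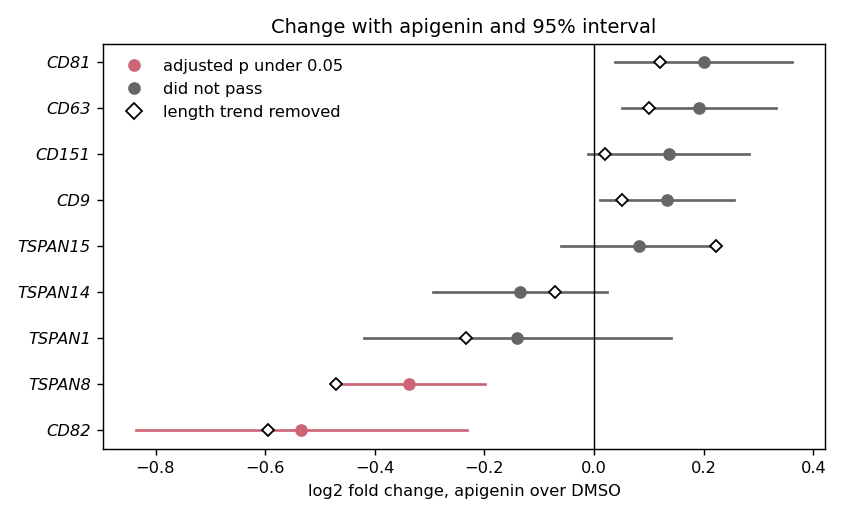
Log2 fold change of each tetraspanin gene, apigenin over DMSO (n = 3 each), with its unadjusted 95% interval from edgeR; red points passed at an adjusted p under 0.05 and open diamonds are the same value with the length trend removed. CD82 (-0.53) and TSPAN8 (-0.34) lie lowest and stay low with the trend removed (-0.60 and -0.47), while CD63, CD81, CD9 and CD151 move toward 0.

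As a sum, the 9 genes stood at 655, 681 and 654 FPKM in the DMSO libraries and at 703, 674 and 767 FPKM in apigenin 1, 2 and 3. Apigenin 2 lay within the DMSO range, and an exact two-sided permutation test of 3 libraries against 3 gave p = 0.2, where 0.1 is the smallest it allows. CD63 and CD151 made up most of the sum, 46.2 and 24.6% on average with DMSO and 48.9 and 25.0% with apigenin. The share of CD82, which does not depend on library scaling, was 0.605, 0.647 and 0.538% with DMSO and 0.416, 0.440 and 0.302% with apigenin. All apigenin shares were below all DMSO shares (exact two-sided permutation test, p = 0.1, the smallest possible). TSPAN8 made up 11.3 ± 0.358% of the sum with DMSO and 8.32 ± 0.804% with apigenin. Of the 9 shares 5 reached that smallest p, those of CD63, CD82, TSPAN1, TSPAN8 and TSPAN14, and the Benjamini-Hochberg adjusted value of each over the 9 exact tests was 0.18. Shares of 1 sum are not independent, as a larger share of CD63 leaves less for the others. The shares were taken without removal of the length trend, and CD63 and CD151 are short, with 2030 and 1624 nucleotides. TSPAN1 is among the 5 although its CPM groups overlapped.

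For the members that fell, the genes with the most similar pattern over the 6 libraries were taken among those with a mean of 10 CPM or more, by the Pearson correlation of log2 CPM. For CD82 these were UBA1 (r = 0.999), ATP8B2 (0.994) and SIMC1 (0.993), and for TSPAN8 GBE1 (0.997), ALAD (0.994) and KLF3 (0.993). The choice was made from 9596 and 9595 genes over libraries that share the group difference, so high values were bound to be found. UBA1 matched CD82 in its pattern but not in its size, with a log2 fold change of -0.074 that did not pass and that was 0.041 with the length trend removed. ATP8B2 (-0.33, edgeR adjusted p = 0.0317) and KLF3 (-0.22, edgeR adjusted p = 0.0428) fell. Without DMSO 1, 2 or 3 or apigenin 1, and in the 3 limma fits, neither passed. After removal of the length trend ATP8B2 stood at -0.25 (adjusted p = 0.0346) and KLF3 at -0.17, which did not pass (adjusted p = 0.0571).

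Most other genes of the tetraspanin family did not pass either. Of 24 listed, 22 were in the tables and 15 were tested, of which 1 rose, 0 fell and 14 did not pass, with a median log2 fold change of 0.05. Among all tested genes 2.76% rose and 4.22% fell. At an unadjusted p under 0.05 edgeR had 2 of these family genes higher and 1 lower, TSPAN5. DESeq2 and limma each called 1 higher and 0 lower. TSPAN4, which takes part in the formation of migrasomes, rose from 30.7 ± 0.882 to 37.4 ± 2.96 CPM (log2 fold change 0.28 ± 0.079, edgeR adjusted p = 0.047). That call was lost without any of DMSO 1, 2 or 3, apigenin 1 or apigenin 3 (adjusted p of up to 0.178). TSPAN4 stood at 0.22 with the length trend removed (adjusted p = 0.0443). TSPAN7, TSPAN3 and UPK1B, named after their values were seen, were the highest of these genes under DMSO with 62.2, 55.1 and 38.8 FPKM, between CD81 and TSPAN8. TSPAN5, another partner of ADAM10, had 19.8 ± 2.39 CPM with DMSO and 15.8 ± 0.481 with apigenin (-0.32 ± 0.106, edgeR adjusted p = 0.0814).

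The listed integrin and immunoglobulin-family partners of tetraspanins all had log2 fold changes below 0, from -0.61 for ITGA2 to -0.014 for IGSF8. Of 10 tested genes 3 fell, 0 rose and 7 did not pass, and the median log2 fold change was -0.23. Among all tested genes 4.22% fell and 2.76% rose. At an unadjusted p under 0.05 edgeR had 6 lower and 0 higher, against 1917 and 1780 of all 15173 tested genes. DESeq2 and limma on log2(FPKM + 1) each called 3 lower and 0 higher. The genes of this list are long, with a median of 6244 nucleotides.

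ITGA6 and ITGB4 encode the laminin receptor of hemidesmosomes, to which CD151 binds. ITGA6 had 516, 489 and 512 CPM with DMSO and 386, 441 and 381 CPM with apigenin. Its log2 fold change was -0.33 ± 0.062 (edgeR adjusted p = 0.00664), and -0.27 with the length trend removed (adjusted p = 3.58e-04). The call of ITGA6 was lost without DMSO 1, DMSO 3 or apigenin 1 (adjusted p = 0.0683, 0.0569 and 0.0605).

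ITGB4 had 271, 286 and 262 CPM with DMSO and 217, 206 and 193 CPM with apigenin. Its log2 fold change was -0.41 ± 0.061 (edgeR adjusted p = 0.00139), and -0.33 with the length trend removed. ITGA2, the alpha chain of a collagen receptor, fell from 50.4 ± 4.69 to 33.1 ± 3.27 CPM (-0.61 ± 0.090, edgeR adjusted p = 0.00155), and stood at -0.51 with the length trend removed. In all 3 genes the groups did not overlap. The chains of another laminin receptor bound by CD151 did not pass, with log2 fold changes of -0.14 ± 0.054 for ITGA3 (edgeR adjusted p = 0.115) and -0.15 ± 0.061 for ITGB1 (edgeR adjusted p = 0.146). The direct partners of CD9 and CD81 also did not pass, IGSF8 at -0.014 ± 0.088 and PTGFRN at -0.30 ± 0.119. Without apigenin 2, edgeR called ITGA3 (-0.16, adjusted p = 0.0499), ITGB1 (-0.22, adjusted p = 0.00722) and PTGFRN (-0.40, adjusted p = 0.0266) lower. With the length trend removed ITGB1 was called too (-0.16, adjusted p = 0.0409), and the value of IGSF8 was 0.013. PTGFRN was also called with no filter on low counts (adjusted p = 0.008).

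Of 14 genes for other membrane partners that have counts here, 2 fell and 0 rose, and the rest did not pass or were not tested. EPCAM, with 2 to 10 reads per library, was below the filter on low counts, and no fold change is given for it. Among all tested genes 4.22% fell and 2.76% rose. At an unadjusted p under 0.05 edgeR had 3 of these partners higher and 4 lower. DESeq2 called 1 higher and 3 lower, and limma 0 higher and 1 lower. CD44, the hyaluronan receptor, fell from 309 ± 5.50 to 242 ± 5.76 CPM (-0.35 ± 0.052, edgeR adjusted p = 0.00155) and was called under each of the 18 other settings run, at -0.26 with the length trend removed. MET, the receptor of hepatocyte growth factor, stood at 9477 ± 122 CPM with DMSO and fell to 8228 ± 620 CPM (-0.20 ± 0.050, edgeR adjusted p = 0.0274). The call of MET was lost when any DMSO library or apigenin 1 was left out (adjusted p of 0.0973 to 0.151) and with limma (0.114 on log2(FPKM + 1)), and with the length trend removed its log2 fold change was -0.12 (adjusted p = 0.00992).

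Of 14 tested genes around the proteases ADAM10 and ADAM17, 1 rose, 3 fell and 10 did not pass (median -0.02). Among all tested genes 2.76% rose and 4.22% fell. ADAM10, the client of TSPAN14 and TSPAN15, fell from 220 ± 7.10 to 186 ± 16.2 CPM (-0.24 ± 0.066, edgeR adjusted p = 0.0408). ADAM10 has 11330 nucleotides, and with the length trend removed it stood at -0.09 and was not called (adjusted p = 0.26). Its call was also lost without DMSO 1, 2 or 3 or apigenin 1 (adjusted p = 0.201, 0.121, 0.154 and 0.169) and in the 3 limma fits.

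Among the substrates of ADAM10, the receptor gene NOTCH1 rose (0.41 ± 0.097, edgeR adjusted p = 0.0227), and NOTCH2 (-0.40 ± 0.108, edgeR adjusted p = 0.0416) and CDH1, which encodes E-cadherin (-0.61 ± 0.087, edgeR adjusted p = 0.0011), fell. Both NOTCH calls were lost when any DMSO library or apigenin 1 was left out, with adjusted p of up to 0.127 for NOTCH1 and 0.175 for NOTCH2, and NOTCH2 also without scaling factors (0.0525). Neither was called in any of the 3 limma fits. Over the 18 other settings the adjusted p reached 0.236 for NOTCH1 and 0.282 for NOTCH2. With the length trend removed the values were 0.54 for NOTCH1, -0.24 for NOTCH2 and -0.59 for CDH1. CDH1 was called under each of the 18 other settings.

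None of the 13 genes for cargo that is loaded into vesicles together with tetraspanins passed in edgeR, DESeq2 or limma on log2(FPKM + 1). At an unadjusted p under 0.05 edgeR had 1 higher and 2 lower, and the median log2 fold change was 0.02. As edgeR called 6.99% of all tested genes, 0 of 13 is near that share. SDCBP, the syntenin that links syndecans and CD63 to exosome formation, had 433 ± 7.21 CPM with DMSO and 439 ± 18.5 with apigenin (0.020 ± 0.053, edgeR adjusted p = 0.867). PDCD6IP, which encodes the ALIX protein, stood at -0.15 ± 0.059 (edgeR adjusted p = 0.132) and was called without apigenin 2 (-0.19, adjusted p = 0.0249). The value of SDCBP was -0.013 without apigenin 3. Of 10 enzymes that add palmitate to tetraspanins or remove it, 0 passed in edgeR, DESeq2 or limma on log2(FPKM + 1), again near that share. EdgeR had 0 of them higher and 1 lower at an unadjusted p under 0.05.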

How the data were processed

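Per the labels' protocols, TRIzol was used for the RNA and a VAHTS Universal V6 kit for the libraries. The tools fastp, HISAT2 and HTSeq and the build GRCh38 (hg38) are named per the submitters' processing notes, without versions or a strand setting. The authors deposited raw read counts per gene and FPKM values, and the deposited FPKM of 100% of genes equal the count divided by the library total and a single length (to a relative tolerance of 0.0001), from which the lengths were taken. Of 23059 symbols 21752 matched RefSeq (GRCh38.p14), among them all 9 members. The RefSeq start-site table held 7 of the 9.

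Groups were compared with edgeR 4.0.16 (R 4.3.3): TMM factors, default filter (15173 genes), quasi-likelihood test, Benjamini-Hochberg over all tested genes at 0.05. The SE is the log2 fold change over the root of F. A count of 0 allows 0.0783 to 0.0893 CPM (3 counts, counting error only). The other settings were DESeq2 1.42.0, other factors and filters, limma 3.58.1 on log2(FPKM + 1) or log2(FPKM + 0.1) (filter 0.5 FPKM in 3 libraries, or none), a replicate block, a lowess trend (span 0.3) on log2 length removed as offsets, and each library left out. With 1 added to the FPKM, fold changes of low genes are understated. Scripts were tested on simulated data. Replicates differed beyond counting noise (chi-square over degrees of freedom 4.4 to 29.6), so none was counted once for another. That they came from separate cultures rests on the labels.

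Members, lists and the length setting were chosen with earlier results of these data known. Named genes are the members, up to 4 called genes (mean of 1 CPM or more) per list, and 8 partner genes named whether called or not. For each called member the 3 genes of most similar pattern are named too. TSPAN2, PRPH2 and GPC3 are not analysed here.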

Additional observations from a re-analysis of the deposited data

How the results depend on the processing

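The 9 members kept the direction of their log2 fold change under all 18 other settings. CD82 was not called by limma on log2(FPKM + 0.1) (-0.52, adjusted p = 0.0511), where 1 member was lower. With limma on log2(FPKM + 1) and no filter neither CD82 (-0.41, adjusted p = 0.165) nor TSPAN8 (-0.33, adjusted p = 0.0629) was called, so that 0 members were lower. With no filter on low counts CD63 was called higher (0.19, adjusted p = 0.0158), and TSPAN15 with the length trend removed together with the replicate block (0.22, adjusted p = 0.0216), each giving 1 member higher. The cause was not tested.

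With 1 library left out, the log2 fold change ranged from -0.61 to -0.44 for CD82, -0.37 to -0.29 for TSPAN8, 0.11 to 0.25 for CD63, 0.165 to 0.24 for CD81, 0.071 to 0.20 for CD151, 0.098 to 0.16 for CD9, -0.195 to -0.058 for TSPAN1, -0.18 to -0.068 for TSPAN14, 0.049 to 0.12 for TSPAN15, -0.075 to 0.041 for IGSF8 and -0.013 to 0.045 for SDCBP. From 0 to 3 members were then higher and 0 to 2 lower, against 103 to 1344 higher and 157 to 1546 lower genes in all. Called genes ranged from 0 to 2 higher for other tetraspanins, 2 to 7 lower for integrin and immunoglobulin-family partners, 0 to 2 higher and 1 to 4 lower for other partners, 0 to 2 higher and 1 to 4 lower around ADAM10, 0 to 1 higher and 0 to 1 lower for vesicle cargo, and 0 to 1 lower for palmitoylation. Over all genes the highest counts came without apigenin 2 and the lowest without DMSO 1.

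Over all genes, 722 were higher and 967 lower with DESeq2, 865 and 1096 with no filter, and 78 and 60 with limma on log2(FPKM + 1) and no filter. With the filter limma called 303 lower at a pseudocount of 1 and 289 at 0.1. With the length trend removed 702 were higher, and 828 with the block as well. DESeq2 and the fit with no filter each called 1 of the other partners higher. The 3 limma fits called 1 of them lower and, around ADAM10, 0 higher and 1 lower. Limma with no filter called 0 other tetraspanins higher and 0 integrin partners lower. With the length trend removed, with or without the block, 2 other tetraspanins were higher and 1 lower, 2 genes around ADAM10 higher and 1 cargo gene lower, and with the block 5 integrin partners were lower.

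IGSF8 was above 0 under 4 settings (0.013 with the length trend removed, 0.010 with the block as well, 0.018 without DMSO 1 and 0.041 without apigenin 2). UBA1 was 0.041 and 0.040 under the length settings, and SDCBP was -0.013 without apigenin 3.

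Samples with the same replicate number showed no shared deviation (correlations of -0.017, -0.019 and -0.048). This cannot tell whether cultures with the same number were handled together. With the replicate block CD82 stood at -0.54 and TSPAN8 at -0.34, both called, and 0 other tetraspanins were higher, as TSPAN4 was not called (0.28, adjusted p = 0.0509). KLF3 also was not called (adjusted p = 0.0679).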
